A study of Mus musculus with 18 samples.

Results

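The 8 genes described here make or restrain cholesterol. Hmgcs1, Idi1, Fdps, Fdft1, Sqle, Lss and Cyp51 encode enzymes of the synthesis pathway, and Insig1 encodes a membrane protein of the endoplasmic reticulum that holds the pathway's activators back while sterol is plentiful. They were picked by name as sterol synthesis genes and targets of the SREBP transcription factors, and they are 8 of the 54532 genes in the count table. The choice was made with earlier results from the same libraries known, in which members were lower in the mutants, so their levels by genotype are given as a description, and nothing is read from tests of them by genotype.

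The libraries came from frontal cortex of mouse pups at postnatal day 0. The double mutants (dKO) are labelled as mutant for RXRg (retinoid X receptor gamma) and RARb (a retinoic acid receptor, beta), which are nuclear receptors for vitamin A derivatives, and the other pups are labelled control. Medial, orbital and dorsal tissue gave 3 dKO and 3 control libraries each, 18 in all. Dorsal is the word of the sample labels; the dissection notes name a motor region in its place and no dorsal one, so which area the dorsal values stand for is not settled here. The labels used here give no strain, allele, promoter, sex, litter or number of animals for either genotype, and p-values therefore measure only the spread between these libraries. Title prefix and index sort the libraries into 3 sets, A, B and C, each with 1 dKO and 1 control library of every region.

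Libraries held 28957325 to 93093398 counted fragments, and those of set A were the deepest. Both targeted genes were still detected in mutants, with 1.19 to 4.85 CPM (counts per 1000000 counted fragments) of Rarb in dKO against 3.50 to 13.9 CPM in control libraries, and 0.377 to 2.90 CPM of Rxrg in dKO against 1.64 to 30.5 CPM in control. The genotypes overlapped in both ranges. The highest control values of Rxrg were those of set B, 6.12, 21.4 and 30.5 CPM in medial, orbital and dorsal tissue. In orbital tissue of set A, Rxrg was higher in dKO than in control, at 2.90 and 2.35 CPM. Xist, transcribed in females, reached 9.45 to 31.4 CPM in sets A and C of the dKO group but no more than 0.155 CPM in any control library. Y-linked Ddx3y had 104 to 119 CPM in set B of the dKO group and 58.3 to 88.1 CPM in control. Values are therefore also given by set, since set B alone compares pups with the same pattern of these genes. All 9 neuron markers were detected in each group of libraries, with summed levels of 6764 to 8187 CPM in dKO and 6614 to 9744 CPM in control.

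Cholesterol does not cross into the brain from the blood in useful amounts, so nervous tissue makes its own, for growing membranes, synapses and, later, myelin. The pathway condenses acetyl-CoA to mevalonate, turns mevalonate into the isoprenoid farnesyl pyrophosphate, joins isoprenoid units into squalene, and closes squalene into lanosterol, which is trimmed to cholesterol. When sterol in the endoplasmic reticulum runs low, the escort protein SCAP carries SREBP to the Golgi, where it is cut, and the released fragment binds sterol response elements in the promoters of pathway genes. INSIG proteins retain SCAP when sterol is high. Retinoid X receptors are the obligate partners of the liver X receptors, which sense oxysterols and drive sterol export genes and Srebf1.

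The promoters of 4 members are shown because sterol response elements and the CCAAT boxes of their partner factor NF-Y are the letters through which SREBP is known to act on this pathway. The sequences are from RefSeq on GRCm38.p6 and run from 250 bases before to 50 bases after the annotated start, in the direction of transcription. Hmgcs1 is at chr13:119690101-119690400 (plus strand), Cyp51 at chr5:4104648-4104947 (minus strand), Insig1 at chr5:28071162-28071461 (plus strand) and Lss at chr10:76531355-76531654 (plus strand). Capitals mark matches to TCACNCCAC, a sterol response element core, and to CCAAT, which reads ATTGG on the other strand.
Hmgcs1: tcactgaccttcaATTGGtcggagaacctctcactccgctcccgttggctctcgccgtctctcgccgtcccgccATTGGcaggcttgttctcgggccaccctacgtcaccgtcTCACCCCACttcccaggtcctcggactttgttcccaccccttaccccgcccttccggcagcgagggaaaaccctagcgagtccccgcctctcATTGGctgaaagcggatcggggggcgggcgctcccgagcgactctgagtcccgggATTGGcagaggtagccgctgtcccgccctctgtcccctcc
Cyp51: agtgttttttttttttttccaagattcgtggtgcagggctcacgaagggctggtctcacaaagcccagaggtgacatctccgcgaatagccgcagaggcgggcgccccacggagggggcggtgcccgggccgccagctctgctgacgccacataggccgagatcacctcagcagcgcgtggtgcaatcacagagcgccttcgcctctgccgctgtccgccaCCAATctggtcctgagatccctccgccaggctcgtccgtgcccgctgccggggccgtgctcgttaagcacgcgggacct
Insig1: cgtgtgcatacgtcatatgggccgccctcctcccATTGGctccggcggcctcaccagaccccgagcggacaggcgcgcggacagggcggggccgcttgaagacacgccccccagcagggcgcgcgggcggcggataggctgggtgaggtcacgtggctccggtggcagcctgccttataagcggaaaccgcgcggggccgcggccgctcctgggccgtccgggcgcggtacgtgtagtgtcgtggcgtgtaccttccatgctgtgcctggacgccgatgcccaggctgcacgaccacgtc
Lss: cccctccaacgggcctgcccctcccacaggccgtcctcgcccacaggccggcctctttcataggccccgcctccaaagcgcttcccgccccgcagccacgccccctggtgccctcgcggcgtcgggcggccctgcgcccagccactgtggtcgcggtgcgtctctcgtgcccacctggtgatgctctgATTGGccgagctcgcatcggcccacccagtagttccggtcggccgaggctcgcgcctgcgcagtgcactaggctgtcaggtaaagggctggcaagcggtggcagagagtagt

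Promoter entries were found for 5 members, Hmgcs1, Idi1, Lss, Cyp51 and Insig1; Sqle, Fdps and Fdft1 are not shown. Each of the 5 held CCAAT on at least 1 strand, a motif in 37.4% of the 32851 promoters of the same length. Hmgcs1 had 4 such boxes, beginning at -237, -176, -45 and 11 from the start, and Cyp51 had 1 at -29, Lss 1 at -62 and Insig1 1 at -216. The strict core TCACNCCAC was found only in Hmgcs1 among the 5, beginning at -137, against 1.24% of all promoters. The GC box GGGCGG was in 5 of the 5, against 35.7% of all promoters. The E-box CANNTG was in 4, against 72.3%, and the nuclear receptor half-site AGGTCA in 2, Hmgcs1 and Insig1, against 16.3%. In Insig1 the half-site begins at -105 and overlaps an E-box that begins at -101. Both strands were searched, the match is of letters only, and a window without a match says nothing about the factor.

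**Figure D1:**
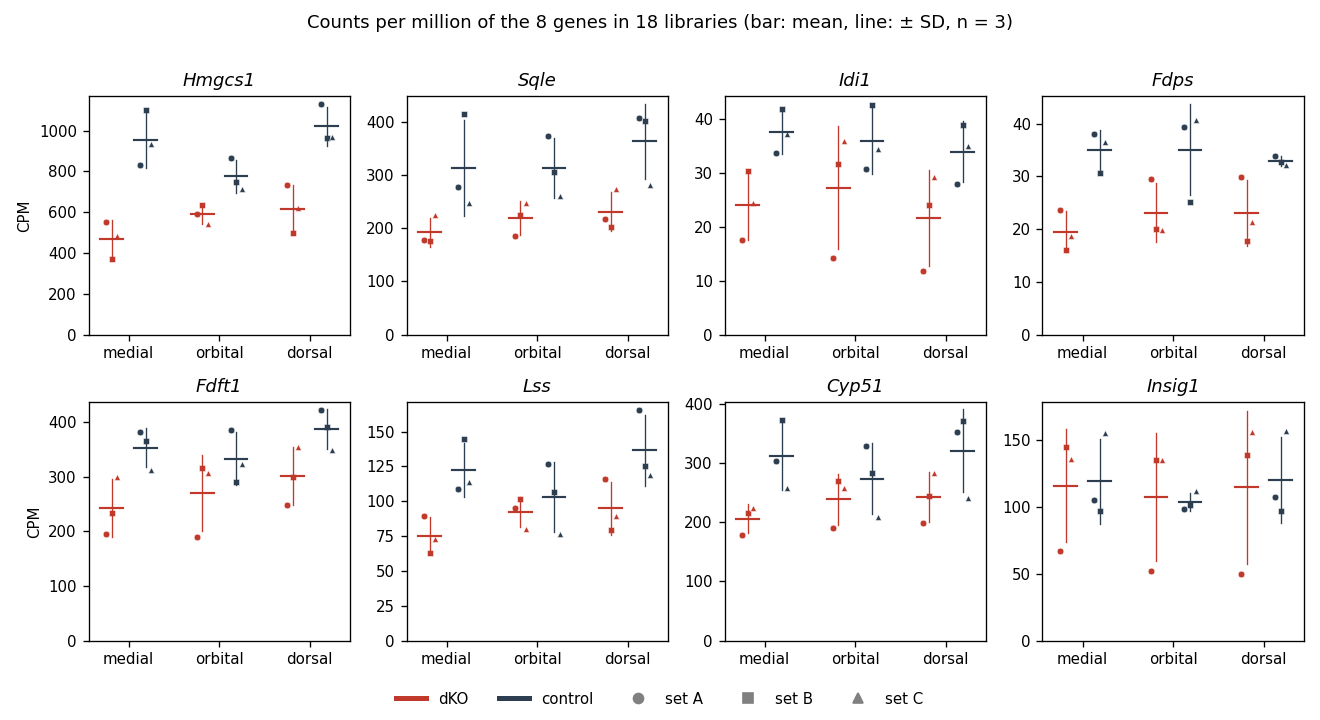
CPM of each of the 8 genes (y axis) in the 18 libraries by region (x axis), dKO in red left of control in blue-black; markers show the set, horizontal bars the mean and vertical lines the SD of 3 libraries. In medial tissue the 3 dKO libraries lie below the 3 control libraries for 7 of 8 genes, and Insig1 overlaps in each region.

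Together the 8 genes took a smaller share of the RNA in mutants. They made up 0.125% to 0.183% of counted fragments in the 9 dKO libraries (median 0.151%) and 0.177% to 0.265% in the 9 control libraries (median 0.218%). By region the share was 0.135% ± 0.0120 in dKO and 0.225% ± 0.0277 in control medial tissue (SD, n = 3 each). It was 0.157% ± 0.0200 in dKO and 0.197% ± 0.0249 in control orbital tissue, and 0.165% ± 0.0167 in dKO and 0.242% ± 0.0232 in control dorsal tissue. In every region the 3 dKO libraries were below the 3 control libraries. Hmgcs1 was the largest part of this sum, with group means of 469.2 to 1021 CPM. In orbital tissue only Hmgcs1 and Sqle of the 8 were apart when taken singly. In bulk tissue, fewer cells that use these genes and less of their RNA per cell cannot be told apart.

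**Figure D2:**
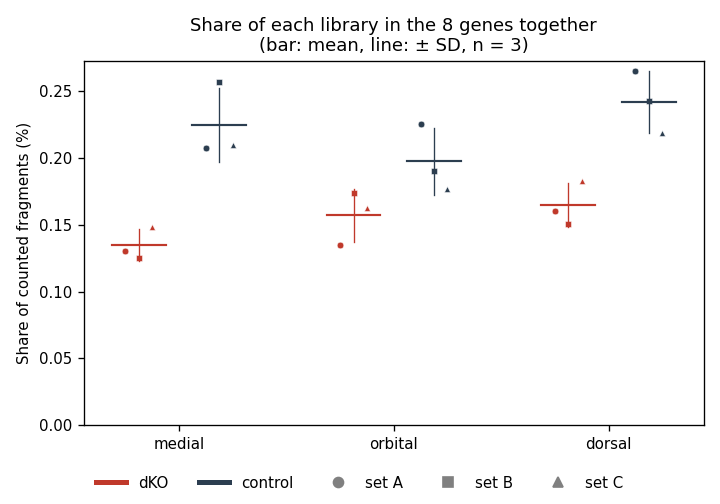
Share of counted fragments in the 8 genes together (y axis, percent) in each library by region (x axis), dKO left of control; markers show the set, bars the mean and lines the SD of 3 libraries. The dKO libraries sit between 0.125% and 0.183%, below the control libraries of the same region.

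Per kilobase of exon, the scale on which genes can be compared with each other, Hmgcs1 stood highest, with a mean of 121.6 CPM per kb in dKO and 199.6 CPM per kb in control. Fdft1 followed with 64.3 CPM per kb in dKO and 84.8 in control. Cyp51 had 51.9 in dKO and 68.4 in control, Sqle 38.7 in dKO and 59.5 in control, and Insig1 36.5 in dKO and 37.0 in control. Lss, Idi1 and Fdps were far lower, at 8.11, 6.93 and 5.20 CPM per kb in dKO and 11.2, 10.2 and 8.16 CPM per kb in control. The 8 genes kept this order in both genotypes. Lss has the longest deposited exon length of the 8, 10787 bases, which lowers its place on this scale. Before division by length it averaged 104 CPM over the 18 libraries, beside 114 CPM for Insig1. Hmgcs1, Lss, Idi1 and Cyp51 share 557, 381, 323 and 166 exon bases with genes on the other strand. Counting ignored strand, so fragments on those bases are not in their counts.

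Hmgcs1 (ENSMUSG00000093930, GRCm38 chromosome 13, 119690379 to 119708260, plus strand) encodes the cytosolic synthase that makes HMG-CoA, a precursor of mevalonate. In medial tissue it had 553.9, 372.4 and 481.3 CPM in dKO (sets A, B and C in this order, here and for each gene), against 829.3, 1099 and 935.2 CPM in control. Orbital tissue had 591.0, 637.0 and 540.5 CPM in dKO, against 866.4, 747.6 and 711.5 CPM in control. Every dKO library was below every control library of its region. Dorsal tissue had 731.5, 497.7 and 622.7 CPM in dKO, against 1130, 964.7 and 968.5 CPM in control. The fitted log2 fold change was -1.12 ± 0.16 (SE) in medial, -0.39 ± 0.16 in orbital and -0.79 ± 0.16 in dorsal tissue. Set B held the widest difference of Hmgcs1 in medial tissue, -1.56 on the log2 scale, and the narrowest in orbital tissue, -0.23.

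Idi1 (ENSMUSG00000058258, chromosome 13, 8885501 to 8892451, plus strand) encodes the isomerase that readies isopentenyl pyrophosphate for chain building. It had 17.45, 30.27 and 24.34 CPM in medial dKO libraries, against 33.64, 41.80 and 37.10 CPM in control. The genotypes did not overlap there, while in orbital tissue (14.26, 31.58 and 35.83 CPM in dKO, against 30.71, 42.58 and 34.34 CPM in control) and in dorsal tissue (11.84, 23.98 and 29.17 CPM in dKO, against 27.89, 38.88 and 34.95 CPM in control) they did. Its log2 fold change was -0.77 ± 0.24 in medial, -0.47 ± 0.24 in orbital and -0.77 ± 0.24 in dorsal tissue. The dKO library of set A was the lowest of its region in each case.

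Fdps (ENSMUSG00000059743, chromosome 3, 89093588 to 89101959, minus strand) encodes farnesyl pyrophosphate synthase, whose product feeds sterols, dolichol and protein prenylation. Medial tissue held 23.70, 16.12 and 18.66 CPM in dKO, against 37.93, 30.63 and 36.45 CPM in control. Dorsal tissue held 29.93, 17.72 and 21.39 CPM in dKO, against 33.84, 32.77 and 32.06 CPM in control. No dKO library reached a control library in either region. In orbital tissue the values were 29.53, 20.05 and 19.78 CPM in dKO and 39.42, 25.05 and 40.69 CPM in control, and the control library of set B lay within the dKO range. The log2 fold change was -0.94 ± 0.19 in medial, -0.63 ± 0.19 in orbital and -0.60 ± 0.19 in dorsal tissue. Of its 4208 exon bases, 1124 are shared with the predicted gene Gm43738 on the same strand, which had 0 CPM, and the recorded counting command has no option to count fragments that fall on both genes, so the level of Fdps per kb is a minimum.

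Fdft1 (ENSMUSG00000021273, chromosome 14, 63145150 to 63179578, minus strand) encodes squalene synthase, the first enzyme committed to sterols. It had 195.0, 234.6 and 300.1 CPM in medial dKO libraries, against 381.6, 366.4 and 313.0 CPM in control. The gap between the genotypes was wide in set A and small in set C, with within-set log2 differences of -0.97 and -0.06. Orbital tissue had 190.4, 315.9 and 306.6 CPM in dKO and 386.4, 290.9 and 323.2 CPM in control, and dorsal tissue 248.0, 300.4 and 354.2 CPM in dKO and 423.0, 391.7 and 350.0 CPM in control. The genotypes overlapped in both. The log2 fold change was -0.63 ± 0.23 in medial, -0.32 ± 0.23 in orbital and -0.43 ± 0.23 in dorsal tissue. Fdft1 shares 774 of its 4227 exon bases with the antisense neighbour Ctsb, which averaged 567 CPM in dKO and 516 CPM in control, and counting ignored strand, so fragments on the shared bases are not in its count.

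Sqle (ENSMUSG00000022351, chromosome 15, 59315077 to 59331192, plus strand) encodes squalene epoxidase, another control point of flux. Medial tissue had 178.6, 175.4 and 224.2 CPM in dKO, against 276.8, 415.5 and 247.2 CPM in control. Orbital tissue had 184.8, 224.7 and 247.6 CPM in dKO, against 373.3, 305.4 and 261.3 CPM in control. The dKO libraries were below the control libraries in each region, by little in set C. Dorsal tissue had 217.9, 202.8 and 273.4 CPM in dKO, against 406.9, 402.4 and 282.2 CPM in control. The log2 fold change was -0.78 ± 0.23 in medial, -0.52 ± 0.23 in orbital and -0.71 ± 0.23 in dorsal tissue.

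Lss (ENSMUSG00000033105, chromosome 10, 76531588 to 76557138, plus strand) encodes lanosterol synthase, which closes the sterol rings. It had 89.40, 63.05 and 72.85 CPM in medial dKO libraries, against 108.8, 144.5 and 113.9 CPM in control. Dorsal tissue had 116.3, 79.27 and 89.47 CPM in dKO, against 165.8, 125.3 and 118.9 CPM in control. The genotypes were apart in these regions and overlapped in orbital tissue, with 95.46, 101.6 and 80.41 CPM in dKO and 126.7, 106.5 and 76.33 CPM in control. The log2 fold change was -0.81 ± 0.18 in medial, -0.14 ± 0.18 in orbital and -0.58 ± 0.18 in dorsal tissue.

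Cyp51 (ENSMUSG00000001467, chromosome 5, 4081145 to 4104746, minus strand) encodes the lanosterol demethylase, the first step after ring closure. It had 178.0, 215.7 and 223.4 CPM in medial dKO libraries, against 304.3, 372.2 and 258.4 CPM in control. Orbital tissue had 189.7, 269.2 and 258.2 CPM in dKO and 328.1, 282.7 and 209.1 CPM in control, and dorsal tissue 199.5, 244.7 and 283.8 CPM in dKO and 352.5, 370.8 and 240.2 CPM in control. Only medial tissue separated the genotypes, and in set C the dKO library was the higher one in orbital and dorsal tissue. The log2 fold change was -0.68 ± 0.23 in medial, -0.21 ± 0.23 in orbital and -0.47 ± 0.23 in dorsal tissue.

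Insig1 (ENSMUSG00000045294, chromosome 5, 28071363 to 28078662, plus strand), the only member that is not an enzyme, did not share the pattern. It had 67.38, 144.8 and 135.7 CPM in dKO and 105.0, 96.81 and 155.5 CPM in control medial tissue. Orbital tissue had 52.42, 135.4 and 134.9 CPM in dKO and 98.60, 101.4 and 111.6 CPM in control, and dorsal tissue 49.52, 138.9 and 156.2 CPM in dKO and 107.1, 96.59 and 156.9 CPM in control. In set A the dKO library was lower in each region, and in set B it was higher in each region, by 0.42 to 0.58 on the log2 scale. The log2 fold change was -0.20 ± 0.32 in medial, -0.08 ± 0.32 in orbital and -0.25 ± 0.32 in dorsal tissue, within its standard error in each. Without set A it was 0.13, 0.40 and 0.21.

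**Figure D3:**
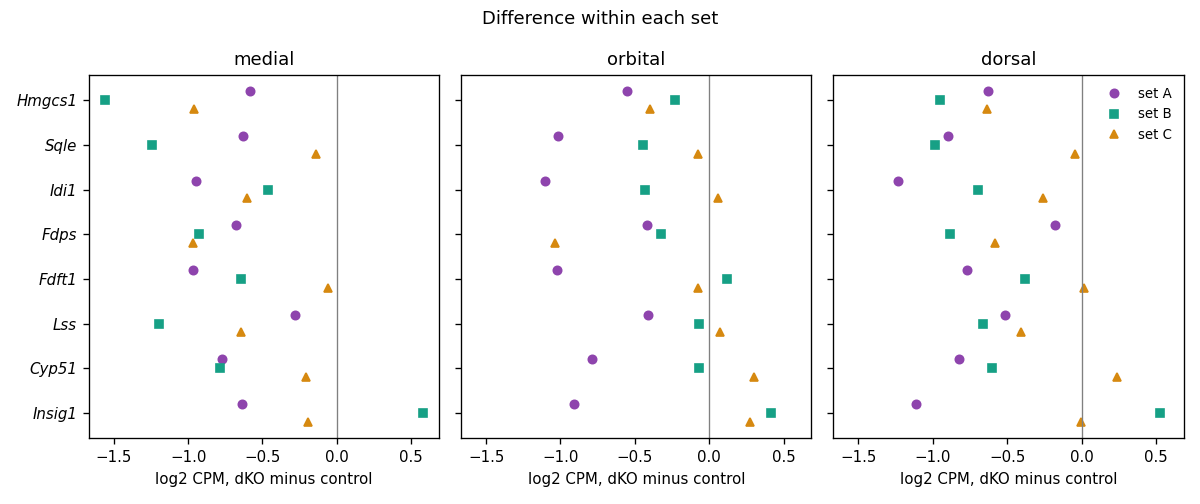
Log2 CPM of the dKO library minus that of the control library of the same set (x axis) for each of the 8 genes (rows) in medial, orbital and dorsal tissue; markers show the set. Most points lie left of 0, no set is nearest to it for every gene, and Insig1 has points on both sides in each region.

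For the 7 enzymes, the 3 dKO group means were below the 3 control group means. Hmgcs1, from low to high, averaged 469.2 ± 91.4 CPM in dKO medial, 589.5 ± 48.3 in dKO orbital and 617.3 ± 117 in dKO dorsal tissue, then 775.2 ± 81.1 in control orbital, 954.3 ± 136 in control medial and 1021 ± 94.2 in control dorsal tissue (SD, n = 3 each). Neighbours in this order overlapped in their libraries at every step. Among the other members the only neighbours that did not overlap were dKO orbital and control dorsal tissue for Fdps, at 23.12 ± 5.56 and 32.89 ± 0.895 CPM. The order of Insig1 mixed the genotypes, from 103.9 ± 6.85 CPM in control orbital to 120.2 ± 32.2 CPM in control dorsal tissue.

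Counted over the 8 genes and the sets, the dKO library was below the control library of its set in 23 of 24 comparisons in medial tissue. The count was 18 of 24 in orbital and 21 of 24 in dorsal tissue. The labels do not say that libraries of a set are pairs, and the genes share these libraries. The genotypes were apart, with each dKO library below each control library, for 7 members in medial tissue, where 6.47% of the 18730 genes tested were so. They were apart for 2 members in orbital tissue (Hmgcs1 and Sqle), against 8.47% of all genes, and for 4 in dorsal tissue (Hmgcs1, Sqle, Fdps and Lss), against 3.09%. Because the members were put forward on this contrast, nothing is read from those counts.

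The median log2 fold change of the 8 members was -0.78 in medial, -0.35 in orbital and -0.59 in dorsal tissue, beside a median of -0.00, -0.03 and -0.01 over all genes tested. The sets differed. Within-set medians in sets A, B and C were -0.66, -0.86 and -0.41 in medial tissue, -0.80, -0.68 and -0.15 in dorsal tissue, and -0.85, -0.15 and -0.01 in orbital tissue. Leaving out set A changed the orbital value most. Without it the median was -0.66 in medial, -0.03 in orbital and -0.51 in dorsal tissue, and Fdft1, Lss, Cyp51 and Insig1 then had positive fold changes in orbital tissue. Leaving out the set A library alone gave an orbital median of -0.15 without the dKO library and -0.19 without the control library. The difference of the dKO effect between medial and orbital tissue was negative for each of the 8, from -0.74 ± 0.21 for Hmgcs1 to -0.08 ± 0.18 for Insig1. Of the 50 other pathway genes 0 passed in that interaction (edgeR), in which 1.47% of all genes were called, and 14 had an unadjusted p under 0.05, as did 3854 of the 18730 genes tested.

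**Figure D4:**
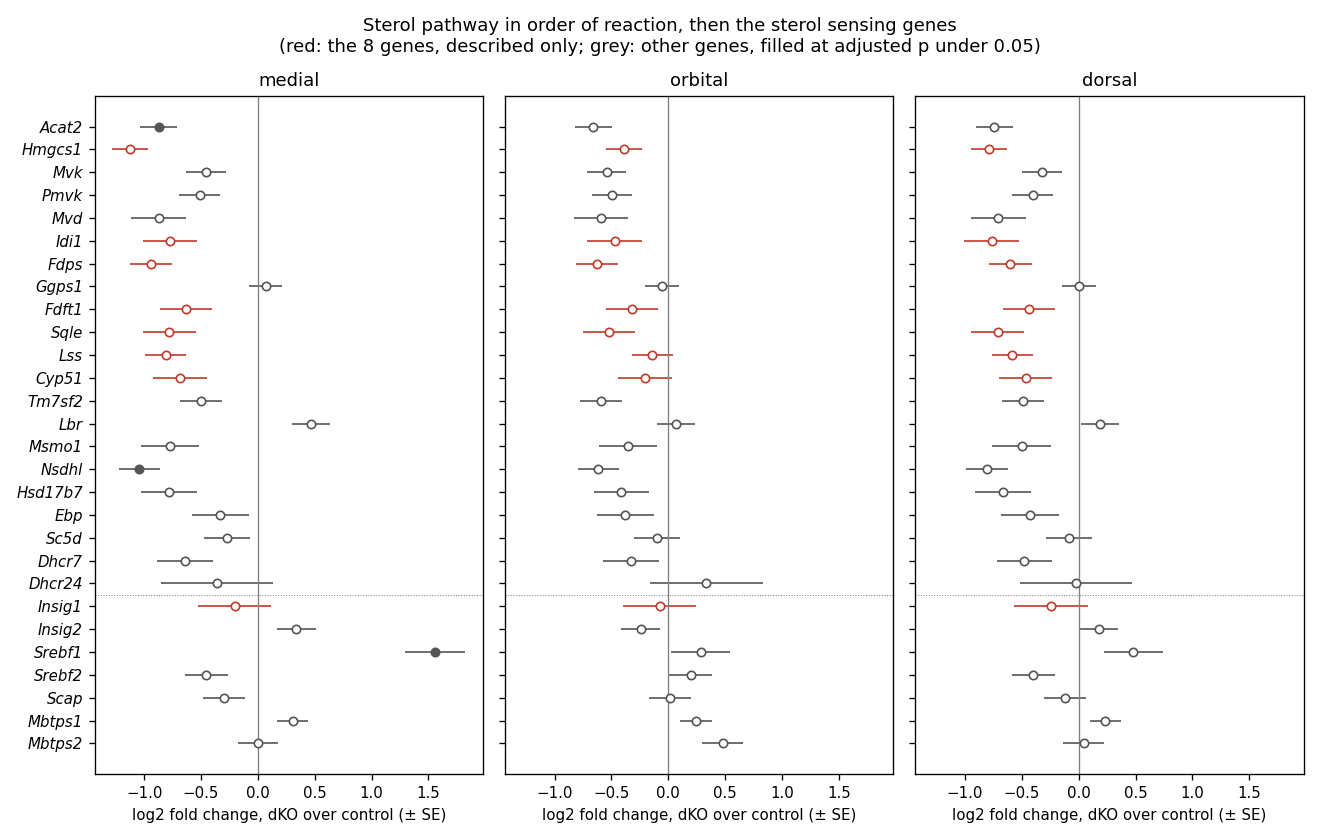
Fitted log2 fold change of dKO over control with its SE (x axis) for sterol synthesis genes from acetyl-CoA to cholesterol, with Ggps1 as a side branch, and below the dotted line for the genes of sterol sensing, in 3 regions. Red points are the 8 genes; filled grey points are genes outside them at adjusted p under 0.05. Most enzymes lie left of 0 in each region, and Srebf1 lies at 1.56 in medial tissue.

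The other enzymes of the route were tested as genes outside the members. These genes, like the pathway lists that follow, were chosen with earlier results from the same libraries known. Their tests are therefore not independent support for the members. Of 15, 2 fell in medial dKO tissue and 0 rose (edgeR quasi-likelihood test, Benjamini-Hochberg adjusted p under 0.05 over all genes), where 2.08% of all genes were called in either direction and 0.897% lower. In orbital and dorsal tissue 0 passed, where 0.0374% and 0.0214% of all genes were called. These fits count the regions of a set and genotype as separate libraries. With those regions summed, 0 of the 15 passed (lowest adjusted p = 0.32, edgeR), where 0.0249% of all genes were called. At an unadjusted p under 0.05 there were 11 of the 15 in medial, 6 in orbital and 7 in dorsal tissue, beside 2816, 2605 and 1270 of the 18730 genes tested. Log2 fold changes were negative for 13 of the 15 in medial, 12 in orbital and 13 in dorsal tissue, with medians of -0.51, -0.38 and -0.48. In all genes tested 50.4%, 52.5% and 51.3% were negative.

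Nsdhl, a dehydrogenase that takes part in demethylating lanosterol and lies on the X chromosome, fell in medial tissue. It had 47.19, 28.89 and 30.78 CPM in dKO, against 71.06, 76.42 and 54.08 CPM in control. The groups did not overlap, the within-set difference was widest in set B at -1.40, and the log2 fold change was -1.04 ± 0.18 (adjusted p = 0.0089, edgeR). Acat2, the cytosolic thiolase that makes acetoacetyl-CoA, had 335.8, 194.0 and 245.9 CPM in dKO, against 544.2, 453.7 and 330.8 CPM in control. It was lower in 3 of 3 sets though the groups overlapped, with a log2 fold change of -0.87 ± 0.16 (adjusted p = 0.0131, edgeR). Mvd, the mevalonate pyrophosphate decarboxylase, missed the threshold at -0.87 ± 0.24 (adjusted p = 0.0719, edgeR), and stood at -0.59 ± 0.24 in orbital tissue. Mvk and Pmvk, the kinases of the route, had -0.45 ± 0.17 and -0.51 ± 0.18 in medial tissue, and Ggps1, which makes the geranylgeranyl branch, 0.07 ± 0.15.

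After squalene, Hsd17b7 had -0.78 ± 0.25 and Msmo1 -0.78 ± 0.26 in medial tissue (adjusted p = 0.114 and 0.136, edgeR). Dhcr7, the reductase of a last step to cholesterol, had -0.64 ± 0.24. Lbr, a sterol reductase that also anchors chromatin at the nuclear envelope, had 0.47 ± 0.17 there, and its counterpart Tm7sf2 -0.50 ± 0.19. The calls of Nsdhl and Acat2 did not pass when the set A or the set B dKO library of medial tissue was left out, with adjusted p of 0.0573 and 0.0645 for Nsdhl and 0.0786 and 0.0704 for Acat2. Without the control library of set B, Acat2 had 0.0625.

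Among the 6 genes of sterol sensing outside the members, Srebf1 rose in medial tissue and 0 fell. Of all genes tested, 1.18% were called higher there and 0.897% lower. Srebf1 encodes SREBP-1, whose main isoform in many tissues serves fatty acid synthesis, whereas SREBP-2, from Srebf2, serves cholesterol. In medial tissue Srebf1 had 103.7, 56.49 and 86.33 CPM in dKO, against 22.20, 30.89 and 23.84 CPM in control. The groups were far apart, with a log2 fold change of 1.56 ± 0.26 (adjusted p = 0.00753, edgeR). Markers of cycling cells summed to 195 to 346 CPM in the same dKO libraries, against 61.6 to 92.7 CPM in control, and their part in the levels of Srebf1, Nsdhl and Acat2 was not tested. Orbital tissue had 68.48, 62.42 and 47.43 CPM in dKO and 68.70, 42.35 and 37.13 CPM in control, and dorsal tissue 52.09, 44.23 and 65.88 CPM in dKO and 50.47, 37.43 and 26.99 CPM in control. Neither passed, with log2 fold changes of 0.28 ± 0.26 and 0.48 ± 0.26. Srebf2 had -0.45 ± 0.19 in medial tissue (adjusted p = 0.256), Insig2, the paralogue of Insig1, 0.34 ± 0.17, and Scap, the escort of SREBP, -0.30 ± 0.19. None of the 3 calls outside the members, Srebf1, Nsdhl and Acat2, held when the fit used the medial libraries alone, with adjusted p of 0.0533, 0.0899 and 0.0983, or without set A, with 0.155, 0.134 and 0.206. With the regions of a set and genotype summed, 0 of the 6 sensing genes passed (lowest adjusted p = 0.365, edgeR). That fit called 0.0249% of all genes.

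No gene of the 3 remaining lists passed in edgeR in any of the 3 regions or with the regions of a set summed, where 0.0249% of all genes were called. Of 7 uptake and transport genes the lowest adjusted p in medial tissue was 0.222. Of 10 genes for export and turnover, Abcg1 had 0.78 ± 0.28 and Abca1 1.33 ± 0.59 in medial tissue (adjusted p = 0.169 and 0.293, edgeR). Both are sterol exporters that respond to liver X receptors. Of the 10 genes, 5 were negative in medial, 7 in orbital and 2 in dorsal tissue. The medial difference of Abca1 was 2.86, 0.67 and 0.94 on the log2 scale in sets A, B and C, and the groups overlapped. Abcg1 was positive in orbital and dorsal tissue too, at 0.54 ± 0.27 and 1.11 ± 0.28. The related exporter Abcg4 had -0.78 ± 0.22 in medial tissue (adjusted p = 0.0836). Of 12 fatty acid genes, 7 were negative in medial, 4 in orbital and 8 in dorsal tissue, and Fasn, the fatty acid synthase, had -0.52 ± 0.35, 0.83 ± 0.35 and -0.37 ± 0.35. Over the 50 genes of the 6 lists, 32 were negative in medial, 25 in orbital and 29 in dorsal tissue, with medians of -0.22, -0.00 and -0.08.

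The members were also compared between regions within controls. Those contrasts use the same control libraries as the dKO comparison and are not independent of it. Orbital tissue had less of each of the 8 members than dorsal tissue in the fitted values, with a median of -0.32 beside 0.03 for all genes tested, and 2 of the 8 passed, both lower, in a contrast that called 15.8% of all genes and 9.44% lower. Hmgcs1 had a log2 fold change of -0.51 ± 0.15 (adjusted p = 0.0323, edgeR with the row of libraries as a block) and Lss had -0.53 ± 0.16 (adjusted p = 0.0439). For Hmgcs1 the groups were apart, with 711.5 to 866.4 CPM in control orbital and 964.7 to 1130 CPM in control dorsal libraries. Cyp51, Fdft1, Sqle and Insig1 had -0.34, -0.33, -0.31 and -0.29, and Idi1 and Fdps -0.03 and -0.04. Both calls were lost in the same 4 of the 6 fits that left out 1 library, namely the orbital library of set B or C or the dorsal library of set A or C, with adjusted p of 0.106 to 0.201.

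**Figure D5:**
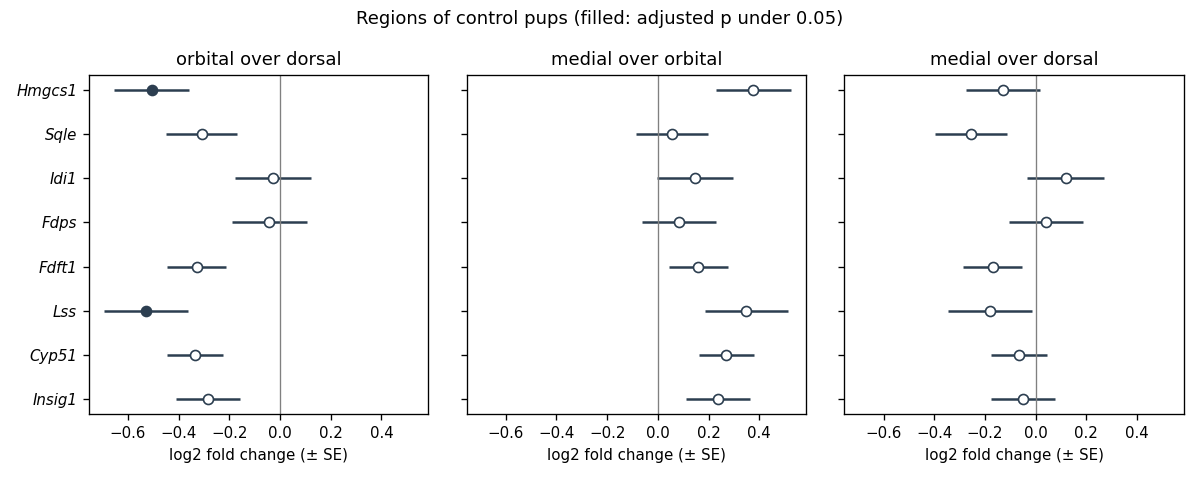
Fitted log2 fold change with its SE (x axis) between regions of control pups for each of the 8 genes (rows): orbital over dorsal, medial over orbital and medial over dorsal. Filled points have adjusted p under 0.05. All 8 points lie left of 0 in the first panel and right of 0 in the second.

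Of the 50 other pathway genes, 7 were lower and 2 higher in orbital than in dorsal control tissue, a share near the 15.8% of all genes called there. The lower ones included Srebf2 (-0.65 ± 0.14, adjusted p = 0.00957) and Mbtps2, the site-2 protease that frees SREBP (-0.48 ± 0.14, adjusted p = 0.0282), with the fatty acid genes Fasn, Acaca, Acly and Elovl6 (-1.45, -1.26, -0.59 and -0.50). The higher ones were Insig2 (0.52 ± 0.15) and Npc2, a lysosomal sterol carrier (0.47 ± 0.13). Medial against orbital control tissue called 0 of 8 members, where 9.02% of all genes were called, though the 8 fold changes were positive (0.05 to 0.38) and 2 had an unadjusted p under 0.05 in edgeR, as did 4543 of the 18730 genes tested. Of the 50 pathway genes it called Mbtps2, Vldlr and Elovl6 higher and Srebf1 lower, a share no higher than that of all genes. Many of these calls lapsed elsewhere: 72 of 143 alternative fits of the 11 genes called between orbital and dorsal tissue, and 39 of 52 of the 4 called between medial and orbital tissue, did not pass. Medial against dorsal control tissue called 0 members, where 0.491% of all genes were called, and 0 members had an unadjusted p under 0.05, against 1753 of all genes tested. DESeq2 called 0 members in either contrast. Within dKO no member passed in edgeR. The contrasts called 2.09% of all genes between medial and dorsal, 0.016% between medial and orbital and 0.486% between orbital and dorsal tissue, and 5, 1 and 0 members had an unadjusted p under 0.05, beside 3325, 1366 and 1359 of the 18730 genes tested. Hmgcs1 had -0.46 ± 0.15 in medial against dorsal and -0.36 ± 0.15 in medial against orbital dKO tissue.

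Markers of other cell types moved with several of these contrasts. In medial tissue the 7 markers of cycling cells summed to 195 to 346 CPM in dKO, against 61.6 to 92.7 CPM in control, and 6 of the 7 rose. Of all genes tested, 1.18% were called higher in this contrast. Radial glia and intermediate progenitor markers summed to 1128 to 1728 CPM in dKO, against 652 to 887 CPM in control, and 3 of 9 rose (Pax6, Vim and Eomes). Astrocyte markers summed to 846 to 1370 CPM in dKO, against 312 to 1026 CPM in control, and 2 of 8 rose (Aldoc and Mlc1). Whether these marker calls hold in the alternative fits was not tested. The 9 neuron markers summed to 6764 to 7289 CPM in dKO, against 7780 to 9744 CPM in control, and all had negative fold changes (median -0.34) with 0 called. In orbital tissue the neuron sum was 7801 to 7917 CPM in dKO and 6614 to 8058 CPM in control, and the meninges sum 885 to 1594 CPM in dKO and 1644 to 2412 CPM in control. Between control regions, meninges markers summed to 1644 to 2412 CPM in orbital and 942 to 1126 CPM in dorsal libraries, and microglia markers to 206 to 233 CPM in orbital and 103 to 116 CPM in dorsal libraries. Of the 9 neuron markers, 8 were negative in orbital against dorsal control tissue. There 5 were called lower, where 9.44% of all genes were. In the difference of the dKO effect between medial and orbital tissue all 9 were negative. In it 2 were called lower, where 0.785% of all genes were. The 9 radial glia and progenitor markers were all positive in that difference, with 2 called. Oligodendrocyte markers summed to 283 to 342 CPM in dKO and 222 to 396 CPM in control medial tissue. Their orbital sums were 271 to 380 CPM in dKO and 267 to 501 CPM in control. In that comparison 1 of the 9 was called lower, where 0.0374% of all genes were called. Between orbital and dorsal control tissue 1 was called higher and 1 lower, where 15.8% of all genes were called. No defining marker of these lists was at 0 in all libraries of a group, and the part of these cell types in the sterol gene levels was not tested.

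How closely the members followed each other varied. Over the 18 libraries, Pearson's r of log2 CPM between a member and the mean of the other 7 was 0.886 for Sqle, 0.884 for Fdft1, 0.844 for Cyp51, 0.771 for Hmgcs1, 0.635 for Idi1, 0.619 for Lss, 0.446 for Fdps and 0.178 for Insig1. The 28 pairs had a median r of 0.619, and -0.301 to 0.925 as range. These libraries share genotype, region and set. With the 6 group means and the title prefix removed, the median of the pairs was 0.203, Fdft1, Cyp51 and Sqle kept 0.832, 0.757 and 0.719 against the other 7, and Fdps had -0.478.

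The pathway gene closest to the mean of the 8 members was Mvd (r = 0.932), followed by Dhcr7 (0.868). After removal of the group means and prefix Msmo1 had 0.871, Mvd 0.859 and Dhcr7 0.842. Abcg1 had -0.739 and Srebf1 -0.62 over the 18 libraries, and 0.248 and 0.652 after the removal. Outside the pathway lists, the 8 genes most like the members among 10990 were B4galt5 (0.90), Ppp3cb, Rap2a, Aacs, Nap1l3, Sms, Kdm2b and Kpna4 (0.821). After the removal they were Acsl3 (0.935), Cul2, Cdc42ep4, Lrrc41, Btbd10, Lrrtm1, Txndc11 and Men1 (0.856). The lists before and after the removal share no gene. Aacs encodes a cytosolic acetoacetyl-CoA synthetase and Acsl3 a long-chain acyl-CoA synthetase, and what the other listed genes do is not described here.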

How the data were processed

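The values are raw fragment counts per gene as deposited by the authors, without normalization, in 18 columns matched to the labelled libraries by title; 6 further columns matched no sample and were not read. Per the file headers, the authors counted pairs with featureCounts 1.6.2 without regard to strand on Ensembl 94 gene models of GRCm38, and per the submitters' processing notes reads were aligned with STAR 2.6. Gene symbols were matched by identifier for 54409 of 54532 genes.

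Counts were tested in R 4.3.3 with edgeR 4.0.16 (TMM, filterByExpr with minimum count 10 and minimum total 15, quasi-likelihood F tests), with Benjamini-Hochberg adjustment over the 18730 genes tested (20083 where the regions of a row were summed) and a threshold of 0.05. Genotype was tested per region with 6 group means plus title prefix as terms. Regions and interactions were tested with the row (set and genotype) as a block. SE is that of the log2 fold change. CPM is a count per 1000000 counted fragments, levels per kb divide by deposited exon length, and log2 CPM within sets uses a prior count of 2. The fits were tested on simulated data. Between replicates, chi-square per degree of freedom was 41.8 to 190.3, far above counting error, and no libraries were merged.

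Members and gene lists were chosen with earlier results of these data known. All 8 members are described, and of each list the genes called and then those of lowest p, up to 6; some genes that this rule names are not reported here. Likeness used genes of at least 5 CPM and skipped symbols of predicted genes. Alternatives were DESeq2 1.42.0, other size factors, no filter on low counts, other batch terms, the libraries of the compared groups alone, and leaving out each library or row. Leaving out set A was chosen later, after seeing the data. Plots were made with matplotlib 3.10.9.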

Additional observations from a re-analysis of the deposited data

How the results depend on the processing

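The medians of the 8 members stayed negative in all 39 alternative fits, at -0.85 to -0.63 in medial, -0.46 to -0.15 in orbital and -0.65 to -0.50 in dorsal tissue with 1 library left out, and at -0.66, -0.03 and -0.51 without set A. Signs of single members turned in 12 fits. Insig1 turned without a batch term in orbital tissue (0.069), without set A (0.13 in medial, 0.40 in orbital and 0.21 in dorsal tissue) and when 1 library was left out, with ranges of -0.44 to 0.030 in medial, -0.23 to 0.23 in orbital and -0.50 to 0.070 in dorsal tissue. In orbital tissue Cyp51 ranged from -0.39 to 0.060 with 1 library left out, and without set A Cyp51, Fdft1 and Lss had 0.17, 0.079 and 0.061.

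The 3 medial pathway calls became 6 with no filter, 6 in DESeq2, 1 without a batch term, 0 with the medial libraries alone, 0 without set A and 1 to 4 with 1 library left out. DESeq2 called 1 pathway gene in orbital tissue, 4 in dorsal tissue and 5 with regions summed, where edgeR called 0. Members called lower in orbital than in dorsal control tissue were 2, against 4 in DESeq2, 0 with title prefix only, 0 without set A and 0 to 3 with 1 library left out. Members called between medial and orbital control tissue were 0, against 1 with no filter and 0 to 3 with 1 library left out (3 without the medial control library of set A). The difference of the dKO effect between medial and orbital tissue called 0 of the 58 pathway genes and members, 9 with no filter, 8 in DESeq2, and 0 to 14 with 1 library left out (14 without the medial control library of set A). The cause of these shifts was not tested. The main fit called 1.47% of all genes, and the shares in the alternative fits were not counted. As the members are included in these counts, nothing is read from them.

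Same-numbered libraries of the genotypes deviated together with r of -0.073 to 0.321. Those of set A, which also share a title prefix, had 0.174 to 0.321, while some of sets B and C were under 0.1. The tests therefore did not take the numbers as pairs, and differences within sets are given only as a description. With a replicate block for the sets, 4 pathway genes were called in medial tissue. With the sets in place of rows as block, 0 members were called between orbital and dorsal control tissue, and 13 of the 15 genes called between control regions no longer passed, Hmgcs1 with 0.0626 and Lss with 0.0831 among them. Each member had at least 477 fragments in each library, so counting error was small beside the spread between libraries.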

Other observations

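Some genes of sterol uptake and fatty acid synthesis took opposite signs in different regions in each of the 3 sets. The share of all genes with such signs was not counted, so nothing is read from the pattern. Vldlr, a lipoprotein receptor of neurons that also binds reelin, was lower in dKO medial tissue by 0.16, 0.15 and 0.08 on the log2 scale in sets A, B and C, and higher in dKO orbital tissue by 0.38, 0.83 and 0.38. The test of that difference gave -0.75 ± 0.21 (adjusted p = 0.08, edgeR), short of the threshold. Fasn was higher in dKO orbital tissue in 3 of 3 sets and lower in dKO dorsal tissue in 3 of 3, and the difference of 1.31 ± 0.45 between these effects did not pass either (adjusted p = 0.276). Within dKO, Scd1, a fatty acid desaturase, fell in medial against dorsal tissue, by 0.78 on the log2 scale (adjusted p = 0.0161, edgeR), a contrast with no call among the 8 cholesterol genes.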
